A study of Mus musculus with 4 samples.

Results

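The genes described here are 53 listed genes of DNA repair, grouped by pathway: damage signalling, homologous recombination, end joining, base excision and single-strand break repair, crosslink repair, mismatch repair, nucleotide excision repair and translesion synthesis. A gene was taken as measured where a row of the array table carried exactly 1 gene symbol, and the row with the highest mean was kept for each gene. By this rule 49 of the 53 were measured, among 30142 genes in all. Parp1 shares its row with a microRNA gene and so falls outside the rule, and Rbbp8, Xrcc2 and Dclre1c were not analysed here.

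RNA came from lungs of C57BL/6 mice, from the cells negative for CD45, a protein that leukocytes carry on their surface. The BLM group received bleomycin through the trachea and the PBS group received phosphate-buffered saline the same way, and both were sampled 10 days later. Each group has 2 arrays, and the labels name no other treatment or allele and give neither age nor sex. The labels do not state whether the 2 arrays of a group stem from different mice. The p-values therefore speak only for the spread among these 4 arrays, which may be technical.

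Cells repair DNA by several routes that divide the work by the type of lesion. Bleomycin, a drug used to induce lung fibrosis in mice, attacks the sugar backbone of DNA and leaves strand breaks with blocked ends and abasic sites. Breaks of both strands are rejoined by end joining or copied from the sister chromatid by homologous recombination, whereas damaged bases and nicks go to base excision repair and bulky lesions to nucleotide excision repair. Values below are log2 expression levels per array, and differences are BLM minus PBS on that scale, given with the standard error (SE), n = 2 arrays per group. "Rose" and "fell" are used only of genes with an adjusted p under 0.05 in a limma fit over all 30142 genes with Benjamini-Hochberg adjustment.

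Other measured features also separate the 2 groups. Xist, the RNA of the inactive X chromosome, lay at 5.60 and 5.43 on the BLM arrays, against 15.86 and 15.61 on the PBS arrays, and the Y-linked gene Kdm5d lay 2.14 higher in BLM (SE 0.13). Treatment and the sex of the donors therefore cannot be told apart. No measured repair gene of the list lies on chromosome X or Y. Ptprc, which encodes CD45 itself, lay at 7.19 and 7.20 in BLM against 6.30 and 6.21 in PBS. Of 11 measured leukocyte markers 7 rose and 1 fell, Lyz2 at -1.14, where 15.2% of all genes rose and 10.1% fell. The summed log2 level of these 11 markers was 86.1 and 85.7 on the BLM arrays and 79.5 and 79.4 on the PBS arrays. Cd3e, Cd79a and Nkg7 did not pass. Epithelial markers fell in 4 of 6 cases, with a summed log2 level of 90.6 and 90.3 in BLM and 94.2 and 94.3 in PBS. Ager, at 0.31, and Sftpc, at 0.12, did not pass. Mesenchymal markers rose in 3 of 4 cases (55.3 and 54.8 against 45.1 and 45.3), and Dcn, at 0.28, did not pass. Of 5 endothelial markers 2 rose, Cdh5 by 0.85 and Kdr by 0.43, with a summed log2 level of 63.1 and 62.0 in BLM and 60.6 and 61.3 in PBS. Tie1, at 0.35, Pecam1, at 0.21, and Tek, at -0.25, did not pass. The part of these shifts in the results below was not tested. The spike-in dap, an RNA control of the labelling, lay at 4.51 and 5.90 in BLM and at 6.95 and 6.90 in PBS. The spike-in cre lay closer, at 13.37 and 13.22 in BLM and at 13.84 and 13.43 in PBS. The spike-in bioB overlapped between the groups, at 9.68 and 9.45 in BLM and at 10.22 and 9.49 in PBS.

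Most of the repair genes differed little between the groups. Of the 49 measured, 7 rose (14.3%), 4 fell (8.16%) and 38 did not pass. Over all genes tested, 25.3% passed, 15.2% higher and 10.1% lower in BLM, and the share of repair genes called was 22.4%. The repair genes were brighter than most, with a median level of 7.41 against 6.03 for all genes. Among genes at or above the median level, fitted on their own, 16 of 41 repair genes (39.0%) and 53.4% of all genes were called. Over the 49 repair genes the median difference was -0.026, against 0.050 for all genes. The median absolute difference of the 49 was 0.16, against 0.19. No repair gene differed by 1 log2 unit, a 2-fold change, while 5.17% of all genes did, and 5.14% did so and passed. Only Ogg1 lay outside the range from the 5th to the 95th percentile of all genes (-0.65 to 0.80). The BLM and PBS values did not overlap for 38 of the 49, where 63.3% of all genes do not overlap. In 16 of them BLM lay above PBS, against 38.0% of all genes, and in 22 BLM lay below PBS, against 25.3% of all genes. Because RNA of many cells was measured together, fewer cells that express a gene and less of its RNA per cell cannot be told apart.

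**Figure D1:**
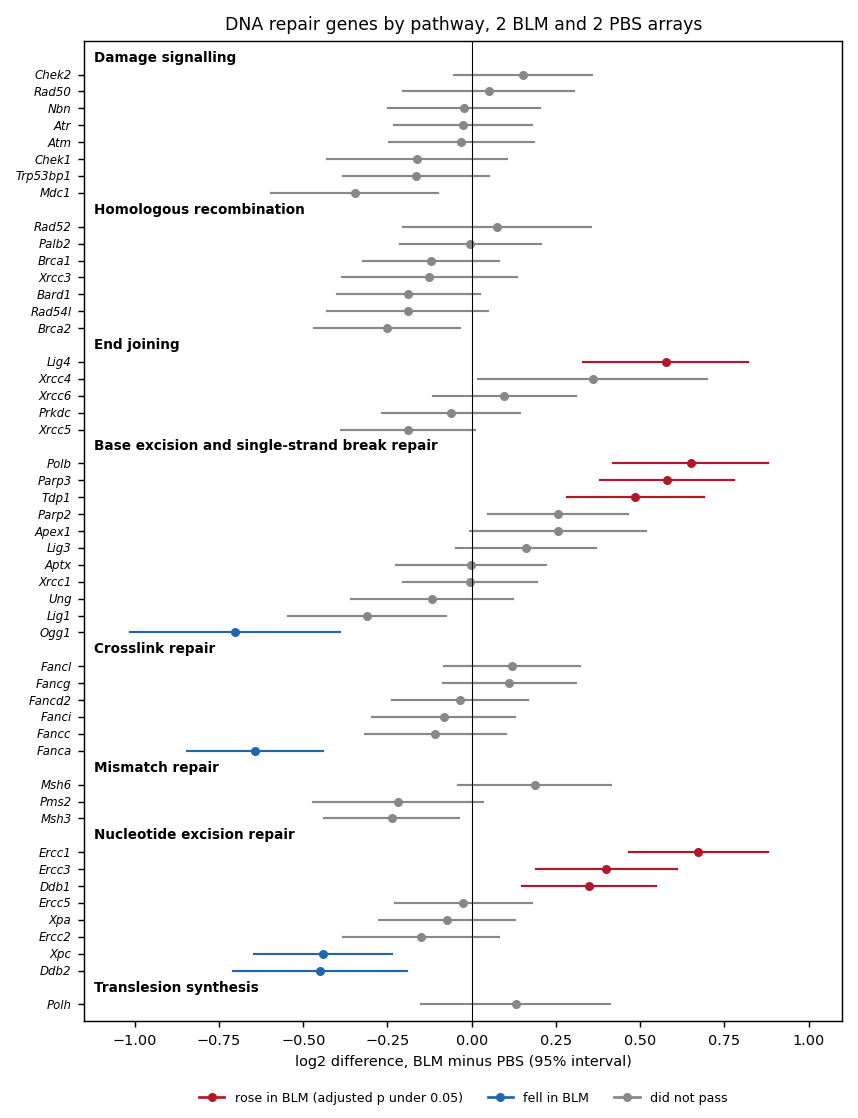
Log2 difference (BLM minus PBS, x axis) of each of the 49 measured repair genes, ordered within pathways down the page. Points are differences and bars their 95% intervals from limma with n = 2 arrays per group. The 7 genes that rose and 4 that fell belong to end joining, base excision and single-strand break repair, crosslink repair and nucleotide excision repair, and all lie between -0.70 and 0.67.

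By pathway, the called genes are counted here beside the 25.3% of all genes called. They were 5 of 8 in nucleotide excision repair and 4 of 11 in base excision and single-strand break repair. End joining had 1 of 5 and crosslink repair 1 of 6. The counts were 0 of 8, 0 of 7, 0 of 3 and 0 of 1 in damage signalling, homologous recombination, mismatch repair and translesion synthesis. At an unadjusted p under 0.05 the first 3 of these had 1 gene each in limma, namely Mdc1, Brca2 and Msh3, and translesion synthesis had 0. These counts are small and were not tested against each other. With the second list described below added, 33.3% of nucleotide excision genes and 22.7% of damage signalling genes were called. To show the regulatory sequence of the genes at either end, the 250 bases before the start site are given below for the 2 highest and the 2 lowest differences among called genes with a window in the RefSeq promoter table (GRCm38.p6), written in the direction of the gene. Polb, which ranked between Ercc1 and Parp3, has no window there. Capitals mark CCAAT boxes (CCAAT or ATTGG) and GC boxes (GGGCGG or CCGCCC), both common promoter elements, searched on both strands, and matches of different motifs may share bases.
Ercc1, chr7:19344821-19345070, plus strand: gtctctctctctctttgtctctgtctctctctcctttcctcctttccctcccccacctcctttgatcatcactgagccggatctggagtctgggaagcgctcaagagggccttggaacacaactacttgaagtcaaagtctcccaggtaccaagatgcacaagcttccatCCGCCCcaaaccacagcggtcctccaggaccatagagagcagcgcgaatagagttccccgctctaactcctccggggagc
Parp3, chr9:106476950-106477199, minus strand: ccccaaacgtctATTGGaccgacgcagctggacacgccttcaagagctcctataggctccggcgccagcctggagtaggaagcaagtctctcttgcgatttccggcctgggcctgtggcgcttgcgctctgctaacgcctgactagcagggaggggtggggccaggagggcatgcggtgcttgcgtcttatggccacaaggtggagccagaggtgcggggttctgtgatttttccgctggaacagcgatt
Ogg1, chr6:113326726-113326975, plus strand: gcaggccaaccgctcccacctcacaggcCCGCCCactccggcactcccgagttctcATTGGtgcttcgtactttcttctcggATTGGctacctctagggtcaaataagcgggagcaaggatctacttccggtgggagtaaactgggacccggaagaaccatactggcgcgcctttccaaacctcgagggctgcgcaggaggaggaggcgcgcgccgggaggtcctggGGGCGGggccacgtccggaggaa
Fanca, chr8:123318577-123318826, minus strand: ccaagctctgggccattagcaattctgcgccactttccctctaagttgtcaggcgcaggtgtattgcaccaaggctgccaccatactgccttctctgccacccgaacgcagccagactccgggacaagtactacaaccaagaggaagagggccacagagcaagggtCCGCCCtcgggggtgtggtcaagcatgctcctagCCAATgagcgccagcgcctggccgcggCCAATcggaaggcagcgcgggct
Ogg1 and Fanca each had 2 CCAAT boxes in this stretch, Parp3 had 1 and Ercc1 none. These 4 genes were picked by their differences, and Xpc and Ddb2, which fell as Ogg1 and Fanca did, have no window in the table. A CCAAT box was present in 21 of the 41 repair gene promoters in the table (51.2%), and in 38.4% of the 17970 promoters of all genes tested, over windows from 250 bases before to 50 after the start. Among repair genes that did not pass the share was 52.9%, and Xrcc3, one of them, had 6 such boxes. A GC box was present in 63.4% of repair gene promoters and in 44.9% of all. The median GC content of the windows was 59.7% for repair genes and 56.0% for all. The median count of CG, a C followed by a G, was 22 for repair genes and 12 for all. The GC box and the E2F motif given below both hold a CG, and its part in their shares was not tested.

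Nucleotide excision repair cuts out a short stretch of DNA around a bulky lesion, and its genes moved both ways. Ercc1, a subunit of the nuclease that makes the cut on the upstream side, lay at 8.41 and 8.34 in BLM, against 7.69 and 7.72 in PBS. It rose by 0.67 (SE 0.08, adjusted p = 0.00426), or 1.59-fold. This was the highest difference of the list, and it passed without any 1 of the arrays (highest adjusted p 0.0343). Ercc3, a helicase of the TFIIH complex that opens the helix, lay at 9.57 and 9.66 in BLM and at 9.22 and 9.22 in PBS, a rise of 0.40 (SE 0.08, adjusted p = 0.0224). Ddb1, the adaptor that joins the damage sensor to its ubiquitin ligase, lay at 10.98 and 10.997 in BLM and at 10.63 and 10.64 in PBS, a rise of 0.35 (SE 0.08, adjusted p = 0.0288). Each pair of BLM arrays lay above both PBS arrays, as in 38.0% of all genes. The calls of Ercc3 and Ddb1 ended without any 1 of the arrays (adjusted p 0.0691 to 0.13 and 0.0776 to 0.143) and with cyclic loess scaling (adjusted p = 0.0606 and 0.135), where Ddb1 stood at 0.19.

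Among genes that serve in damage recognition, Xpc and Ddb2 fell, whereas Ddb1 rose as given above. Xpc, which finds helix distortions across the genome, lay at 7.78 and 7.84 in BLM, against 8.25 and 8.25 in PBS, a difference of -0.44 (SE 0.08, adjusted p = 0.0149). Ddb2, the partner of Ddb1 that binds ultraviolet lesions, lay at 7.70 and 7.82 in BLM, against 8.12 and 8.29 in PBS, a difference of -0.45 (SE 0.10, adjusted p = 0.0293). Neither gene overlapped between the groups, and BLM lay below PBS in 25.3% of all genes. The adjusted p of Xpc was 0.0979 and 0.0665 without BLM replicates 1 and 2 and 0.0511 and 0.0504 without PBS replicates 1 and 2. That of Ddb2 was 0.148, 0.0753 and 0.0947 without BLM replicate 1, BLM replicate 2 and PBS replicate 2. Acp2, a lysosomal phosphatase gene that overlaps Ddb2 in the RefSeq annotation, rose by 0.86 (adjusted p = 0.00428), the opposite direction. The remaining 3 genes did not pass: the scaffold gene Xpa, at 8.27 and 8.31 in BLM and 8.35 and 8.39 in PBS, stood at -0.074 (95% interval -0.28 to 0.13), the nuclease gene Ercc5 at -0.024 and the helicase gene Ercc2 at -0.15. Ercc2, at 5.10 and 5.12 in BLM and 5.18 and 5.34 in PBS, was dimmer than the median gene, at 6.03.

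DDB2, XPC and POLH are known targets of p53 in human cells, and whether p53 acts on the mouse genes was not tested here. Polh, the polymerase that copies past ultraviolet lesions, lay at 7.09 and 7.29 in BLM and at 6.98 and 7.14 in PBS, overlapping, and stood at 0.13 (95% interval -0.15 to 0.41). Of 17 other p53 target genes measured on the same arrays, 10 rose and 2 fell, where 15.2% of all genes rose and 10.1% fell. The 2 that fell were Trp53inp1, at -0.80, and Sesn2, at -0.45, the same direction as Ddb2 and Xpc. Cdkn1a, the cell cycle inhibitor p21, lay at 14.98 and 14.93 in BLM against 11.95 and 12.20 in PBS. It rose by 2.88 (SE 0.11). Mdm2, which restrains p53, rose by 0.45 (SE 0.08), and its call ended without BLM replicate 1 or 2 (adjusted p = 0.0887 and 0.0651). Cdkn1a thus differed by far more than any repair gene of the list, and in the direction opposite to Ddb2 and Xpc.

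**Figure D2:**
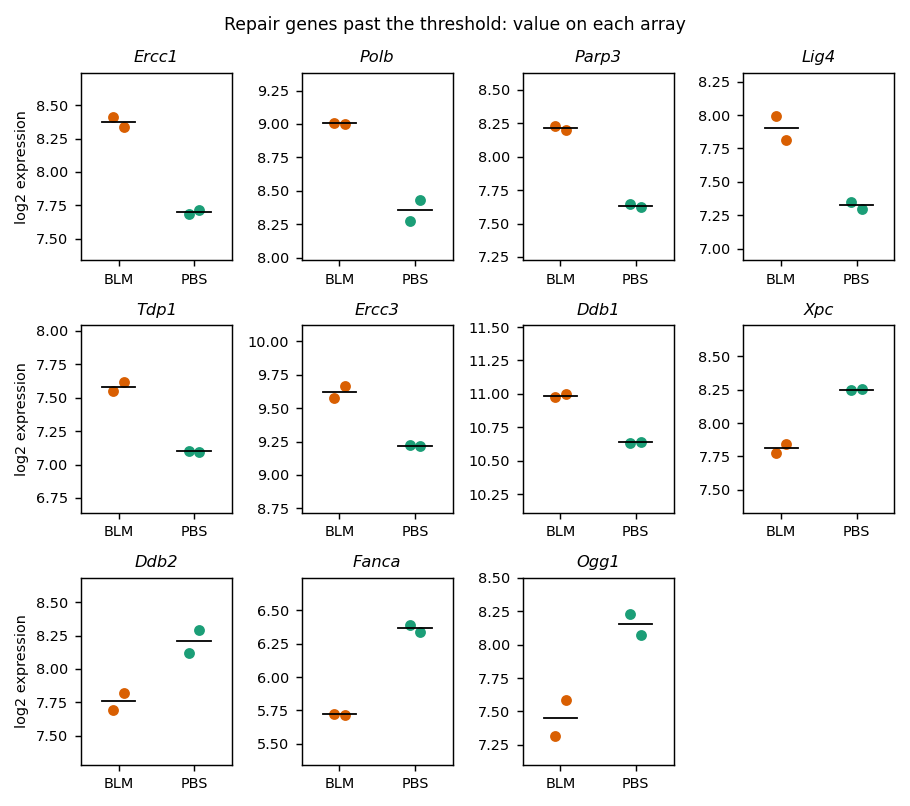
Log2 expression on each array (points) and group means (lines) of the 11 repair genes past the threshold, BLM on the left and PBS on the right of each panel, with y axes of equal span in log2 units. In each panel both BLM arrays lie on the same side of both PBS arrays, from Ercc1 at 8.41 and 8.34 against 7.69 and 7.72 to Ogg1 at 7.31 and 7.59 against 8.23 and 8.07. The genes were picked by adjusted p on these same arrays, so this separation is no further evidence. The groups do not overlap in 63.3% of all genes.

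Base excision and single-strand break repair had 3 genes that rose and 1 that fell among 11. Polb, the polymerase that fills the gap once a damaged base is removed, lay at 9.007 and 9.003 in BLM, against 8.28 and 8.43 in PBS, and rose by 0.65 (SE 0.09, adjusted p = 0.00657), or 1.57-fold. Parp3, a break-sensing ADP-ribosyltransferase, lay at 8.23 and 8.20 in BLM, against 7.64 and 7.63 in PBS, and rose by 0.58 (SE 0.08, adjusted p = 0.00595). Tdp1, which clears blocked ends from DNA strands, lay at 7.55 and 7.61 in BLM, against 7.10 and 7.10 in PBS, and rose by 0.49 (SE 0.08, adjusted p = 0.011). Polb and Parp3 passed without any 1 of the arrays, with adjusted p up to 0.0424 and 0.0459. Tdp1 did not pass without BLM replicate 1 (adjusted p = 0.0567) or BLM replicate 2 (0.0736).

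Ogg1, the glycosylase that removes oxidised guanine, had the deepest fall of the list. It lay at 7.31 and 7.59 in BLM, against 8.23 and 8.07 in PBS, a difference of -0.70 (SE 0.12, adjusted p = 0.0134), or 1.63-fold lower. Its SE was the largest of the 11 called genes. Leaving out BLM replicate 1 gave -0.57 (adjusted p = 0.0591) and leaving out PBS replicate 1 gave -0.62 (adjusted p = 0.0562), and both end the call. Camk1, a calcium-dependent kinase gene that overlaps Ogg1 in the RefSeq annotation, rose by 0.58 (adjusted p = 0.0107, and 0.0673 without BLM replicate 1).

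The other 7 genes of this pathway did not pass. Xrcc1, the scaffold that gathers the repair enzymes at a nick, lay at 7.73 and 7.74 in BLM and at 7.73 and 7.76 in PBS, with a difference of -0.0047 (95% interval -0.20 to 0.19). Aptx, which removes failed ligation intermediates, lay at 7.84 and 7.93 in BLM and at 7.84 and 7.94 in PBS, with a difference of -0.0010 (95% interval -0.22 to 0.22). The groups overlapped for both genes. Parp2 stood at 0.26, Apex1, the endonuclease for abasic sites, at 0.26, Lig3, the ligase that works with Xrcc1, at 0.16, and the uracil glycosylase gene Ung at -0.12. Lig1, the replicative ligase, stood at -0.31 (adjusted p = 0.0651) and passed with cyclic loess (adjusted p = 0.0427), with median centring (0.0472), with a trended robust prior (0.0451) and among genes at or above the median level (0.0277).

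End joining rejoins the ends of a double-strand break directly, and 1 of its 5 measured genes was called. Lig4, the ligase of the final step, lay at 7.99 and 7.81 in BLM, against 7.35 and 7.30 in PBS, and rose by 0.58 (SE 0.10, adjusted p = 0.0117), or 1.49-fold. Without BLM replicate 1 it stood at 0.49 (adjusted p = 0.068), while it passed without each of the other arrays. Xrcc4, its binding partner, stood at 0.36 with a wide interval (0.02 to 0.70, adjusted p = 0.117), from 6.88 and 6.64 in BLM and 6.27 and 6.53 in PBS. The 2 subunits of the Ku ring that caps broken ends pointed in opposite directions and did not pass. Xrcc6, which encodes Ku70, lay at 6.75 and 6.67 in BLM and at 6.58 and 6.65 in PBS, at 0.097 (95% interval -0.12 to 0.31), and Xrcc5, which encodes Ku80, lay at 8.58 and 8.57 in BLM and at 8.76 and 8.76 in PBS, at -0.19 (95% interval -0.39 to 0.01). Prkdc, the kinase that Ku recruits, lay at 7.01 and 6.996 in BLM and at 7.03 and 7.10 in PBS, at -0.060 (95% interval -0.27 to 0.14).

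Damage signalling, the relay that detects a break and halts the cell cycle, had no gene past the threshold among 8. Atm, the kinase activated by double-strand breaks, lay at 7.67 and 7.55 in BLM and at 7.64 and 7.65 in PBS, a difference of -0.030 (95% interval -0.25 to 0.19). Atr, its counterpart at stalled forks, lay at 7.15 and 7.14 in BLM and at 7.21 and 7.14 in PBS, a difference of -0.026 (95% interval -0.23 to 0.18). The BLM and PBS arrays of both kinases overlapped. Their effector kinases stood apart from each other in sign, with Chek2 at 6.53 and 6.57 in BLM against 6.38 and 6.42 in PBS (0.15, 95% interval -0.05 to 0.36), and Chek1 at 6.39 and 6.62 in BLM against 6.66 and 6.68 in PBS (-0.16, 95% interval -0.43 to 0.10). Nbn and Rad50, of the complex that first binds broken ends, stood at -0.023 and 0.050. Mdc1 and Trp53bp1, scaffolds that gather at marked chromatin, stood at -0.35 and -0.17. Mdc1 came nearest to the threshold of all genes that did not pass (adjusted p = 0.0552), and passed with cyclic loess (0.0306), with the trended robust prior (0.0374) and among genes at or above the median level (0.0233).

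Homologous recombination also had no gene past the threshold among 7, and 6 of the 7 differences were below 0, as were 30 of all 49. In the second list described below, 8 differences of this pathway were above 0 and 9 below. Brca1, which steers breaks into this route, lay at 5.33 and 5.35 in BLM and at 5.44 and 5.48 in PBS, a difference of -0.12 (95% interval -0.32 to 0.08). Brca2, which loads the recombinase onto DNA, lay at 6.29 and 6.196 in BLM and at 6.53 and 6.46 in PBS, a difference of -0.25 (95% interval -0.47 to -0.04, adjusted p = 0.093). For both genes the 2 BLM arrays lay below the 2 PBS arrays, as in 25.3% of all genes. Bard1, the partner of Brca1, stood at -0.19, the motor protein gene Rad54l at -0.19, Xrcc3 at -0.13, Palb2, the bridge between Brca1 and Brca2, at -0.0044, and Rad52 at 0.076. Brca1, Bard1, Palb2 and Rad54l were dimmer than the median gene.

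Many genes of recombination and replication are switched on by E2F factors as cells enter S phase. The E2F motif (TTTCCCGC, TTTCGCGC, TTTGCCGC or TTTGGCGC, on either strand) was present in the promoter windows of 8 of 41 repair genes (19.5%), and in 2.84% of all promoters. None of these 8 genes, Bard1, Brca2, Chek2, Fancg, Mdc1, Msh3, Msh6 and Xrcc6, passed the threshold, and their differences ran from -0.35 for Mdc1 to 0.19 for Msh6. Mdc1, Brca2 and Msh3 passed among genes at or above the median level. Of all genes tested 25.3% were called, and 34 of the 41 repair genes with a window did not pass. The count therefore does not set the 8 genes with the motif apart. The stretches that hold the motif before the start site are shown in GRCm38.p6 with the match in capitals, since they are what these genes share. In Msh3 a second match overlaps the one shown, and in Msh6 the match lies after the start.
Bard1, chr1:71103163-71103192, minus strand: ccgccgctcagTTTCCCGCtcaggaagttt
Brca2, chr5:150522442-150522471, plus strand: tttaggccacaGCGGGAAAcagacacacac
Chek2, chr5:110839820-110839849, plus strand: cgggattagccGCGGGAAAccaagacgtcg
Fancg, chr4:43010335-43010364, minus strand: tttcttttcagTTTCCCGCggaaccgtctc
Mdc1, chr17:35841471-35841500, plus strand: tcttcagcctgTTTCCCGCcggtagccgca
Msh3, chr13:92355187-92355216, minus strand: ttgccgtcaagTTTGGCGCgaaatcgcagc
Xrcc6, chr15:82016312-82016341, plus strand: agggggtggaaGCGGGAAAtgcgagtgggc
The cell cycle motif TTTGAA was present in 7.32% of repair gene promoters and in 16.3% of all. Of 29 measured markers of proliferating cells, 2 rose, 3 fell and 24 did not pass (median -0.035), with a summed log2 level of 236.1 and 234.8 in BLM and 236.9 and 234.5 in PBS. Over all genes 15.2% rose and 10.1% fell. The markers that rose were Ccnb2, at 0.35, and Rrm2, at 0.30. Those that fell were Kif11 and Prc1, each at -0.53, and Cenpf, at -0.41. Mki67, the usual marker of cycling cells, lay at 12.58 and 12.57 in BLM and at 12.92 and 12.66 in PBS, a difference of -0.21 (adjusted p = 0.236).

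Crosslink repair, the Fanconi anaemia pathway, had 1 called gene among 6. Fanca, a subunit of its core ubiquitin ligase, lay at 5.73 and 5.72 in BLM, against 6.39 and 6.34 in PBS, and fell by 0.64 on the log2 scale (SE 0.08, adjusted p = 0.00453), and its BLM values were under the median gene level of 6.03. Its call held in each fit with 1 array left out (highest adjusted p 0.0336). No other core subunit on the list was called: Fancg stood at 0.11, the ligase subunit gene Fancl at 0.12 and Fancc at -0.11. Aopep, which overlaps Fancc, rose by 1.64 in its brightest cluster and by 0.45 over the mean of its clusters. Fancd2, which the core complex marks with ubiquitin, lay at 5.18 and 5.23 in BLM and at 5.24 and 5.24 in PBS, at -0.036 (95% interval -0.24 to 0.17), and its partner Fanci stood at -0.083. Both were dimmer than the median gene. Zfp276, which overlaps Fanca in the annotation, stood at 0.0076.

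Mismatch repair corrects copying errors, and none of its 3 measured genes passed. Msh6, which serves in the recognition of single mismatches, lay at 8.66 and 8.58 in BLM and at 8.37 and 8.495 in PBS, at 0.19 (95% interval -0.04 to 0.41). Msh3, which serves in the recognition of small loops, lay at 6.84 and 6.81 in BLM and at 7.06 and 7.07 in PBS, at -0.24 (95% interval -0.44 to -0.04, adjusted p = 0.087), and Pms2 stood at -0.22. Msh6 lay above and Msh3 and Pms2 below their PBS values without overlap, where 63.3% of all genes do not overlap.

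Across the 38 genes that did not pass, differences ran from -0.35 to 0.36, with 14 of them within 0.1 of 0. Their 95% intervals reached at most from -0.59 to 0.70, so that a change of 1 log2 unit lay outside the interval of each. Of the 38, 6 had an unadjusted p under 0.05, namely Mdc1, Lig1, Parp2, Msh3, Brca2 and Xrcc4, and their intervals left out 0.

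A second list held 94 repair genes outside the 53, of which 83 were measured. Of these, 8 rose, 9 fell and 66 did not pass (20.5% called, median 0.040), against 25.3% of all genes. Wee1, the kinase that holds back entry into mitosis, stood far from the rest at 8.16 and 8.22 in BLM, against 10.76 and 10.80 in PBS. It fell by 2.597 on the log2 scale (SE 0.08, adjusted p = 0.000262) and was the only gene of the 83 to differ by 1 log2 unit or more. Rpa1, the large subunit of the protein that coats single-stranded DNA, lay at 7.64 and 7.80 in BLM, against 8.57 and 8.45 in PBS, and fell by 0.79 (SE 0.10, adjusted p = 0.00487). Rad18, the ubiquitin ligase that opens the way to translesion polymerases, lay at 8.70 and 8.83 in BLM, against 8.11 and 8.18 in PBS, and rose by 0.62 (SE 0.09, adjusted p = 0.0075). Of the 17 called, these 3 alone passed without any 1 of the arrays.

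The remaining called genes of the second list are given by pathway, with counts over both lists. In nucleotide excision repair, Gtf2h5, a TFIIH subunit like Ercc3, rose by 0.35, and Cul4b, a cullin of the ligase that holds Ddb1, by 0.34, making 5 that rose and 2 that fell of 21 measured. In base excision repair the glycosylase genes Mpg and Neil2 rose by 0.39 and 0.34, and Pcna, the sliding clamp of replication, stood at -0.31, for 5 that rose and 2 that fell of 24. In homologous recombination Rad51c and the nuclease gene Mus81 fell, at -0.38 and -0.35, so that with Rpa1 3 of 24 fell (12.5%, against 10.1% of all genes) and none rose. In damage signalling the checkpoint clamp gene Rad9a rose by 0.58 and the fork protection gene Tipin by 0.45. Rad17 rose by 0.38 and Rif1 fell, at -0.35. With Wee1 these make 3 that rose and 2 that fell of 22 over both lists. The crosslink nuclease gene Fan1 fell, at -0.50, as did the translesion genes Rev1, at -0.66, and Poli, at -0.33. Gtf2h5, Cul4b, Mpg, Neil2, Pcna, Rad51c, Mus81 and Poli passed in none of the 4 fits with 1 array left out (adjusted p 0.0559 to 0.225). Fan1, Rad9a and Tipin kept theirs in 1 of the 4 such fits (adjusted p up to 0.148), and Rev1 in all but that without BLM replicate 1 (0.0868). With cyclic loess, Gtf2h5, Cul4b and Rad9a did not pass (adjusted p = 0.0771, 0.0632 and 0.0511). Cul4b lies on chromosome X.

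**Figure D3:**
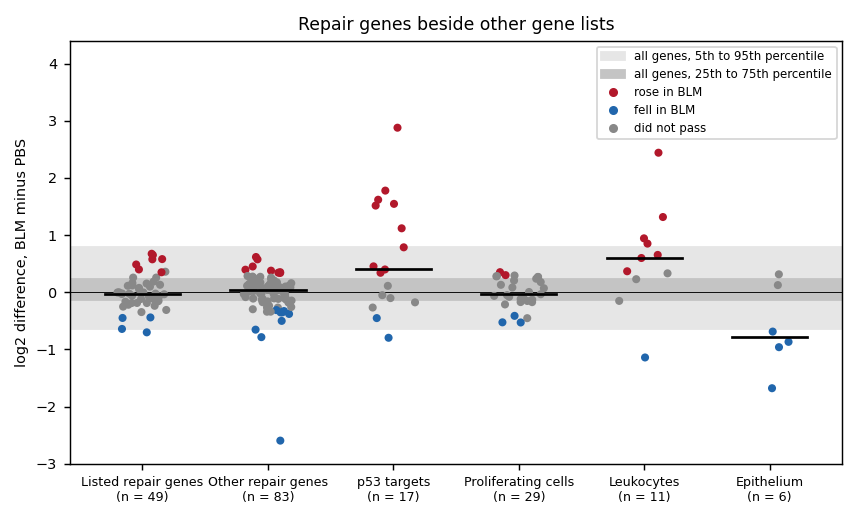
Log2 difference (BLM minus PBS, y axis) of the genes in 6 lists, with a point for each gene and a line at each list's median. Grey bands show the range of all 30142 genes (5th to 95th percentile, -0.65 to 0.80, and 25th to 75th, -0.13 to 0.24). The listed repair genes (median -0.026) and markers of proliferating cells (-0.035) centre near 0, while p53 targets (0.40) reach from -0.80 to 2.88.

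The calls that held most firmly were those of Ercc1, Polb, Parp3 and Fanca, which passed in the fits without each array in turn and under every other alternative tried. With the fits without 1 array, 3 to 5 repair genes rose and 1 to 2 fell. Those fits call fewer genes throughout, 13.3% and 14.5% of all genes without BLM replicates 1 and 2, and 19.0% and 19.8% without PBS replicates 1 and 2, and the share of repair genes called was 8.16%, 12.2%, 14.3% and 14.3% in the same order.

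**Figure D4:**
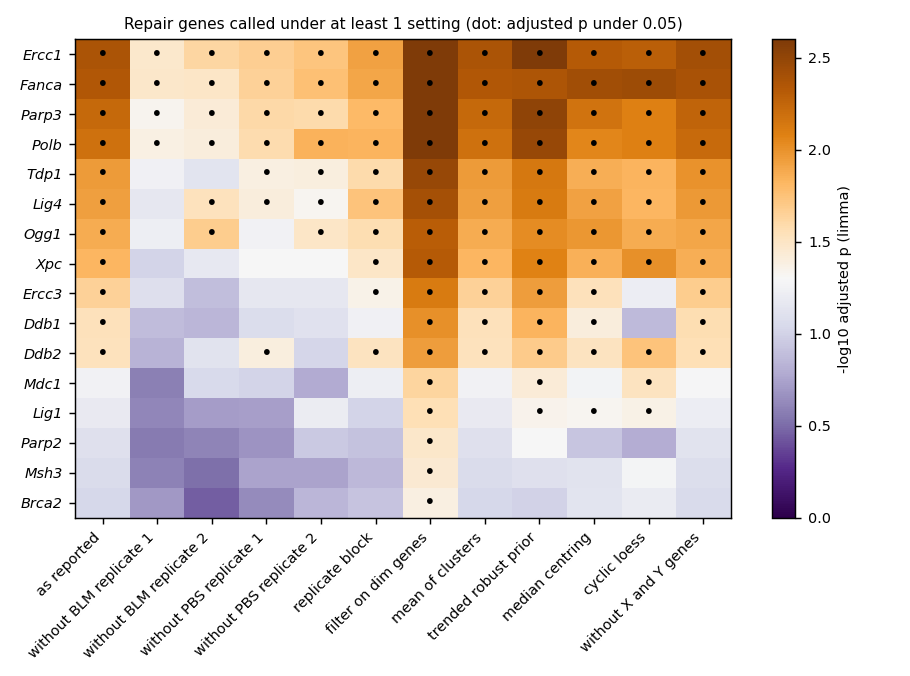
Adjusted p (limma, shown as -log10 by colour) of the 16 repair genes called under at least 1 setting (rows), for the fit as reported and 11 alternatives (columns), with a dot where it is under 0.05. Ercc1, Fanca, Parp3 and Polb have a dot in every column, while Parp2, Msh3 and Brca2 have one only where genes below the median level were left out.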

How the data were processed

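The deposited log2 expression values, 1 per transcript cluster, are RMA output; the submitters' processing notes name RMA and Affymetrix Expression Console, and no version is stated in the labels. RMA subtracts background, equalises the distributions of the arrays and combines the probes of a cluster. Each array had 669 to 704 features above 16, more than log2 of a 16-bit signal allows, so these log2 values, as the authors deposited them, carry a scaling whose origin is not stated. The number of arrays limits the precision, and the median SE of a difference was 0.0969.

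Clusters with exactly 1 symbol in the platform annotation were kept (30604 of 65956, 827 symbols updated through Entrez identifiers), with the highest mean per gene, leaving 30142 genes. They were fitted with limma 3.58.1 in R 4.3.3 (lmFit, eBayes, two-sided, 2 residual degrees of freedom), with Benjamini-Hochberg adjustment. Tested on simulated arrays of the BLM and PBS comparison with all 30142 genes, 25 of 67 genes shifted by 1 log2 unit and 56 of 66 shifted by 2 were recovered, and 0 of 67 shifted by 0.5. The simulation shifted only these genes and shuffled the spreads among genes, whereas 25.3% of all genes were called in the deposited values. Its adjusted threshold was therefore stricter, and its shares recovered do not carry over to the results above. In the deposited values, differences down to 0.291 passed.

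The genes and lists were chosen with earlier results of these data known. Values per array were given for called genes and for a panel of pathway-defining genes, and for the second list for up to 3 called genes of each pathway by size. Overlapping genes, the CCAAT and GC box motifs and the promoters shown were chosen after values were seen. Promoter windows come from RefSeq (GRCm38.p6) and matched 41 of 49 genes, with the first start taken where several were listed. Same-numbered arrays deviated together with a correlation of 0.014, so the numbers were not used as pairs. Alternatives are given in the closing section.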

Additional observations from a re-analysis of the deposited data

How the results depend on the processing

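With 7 repair genes higher and 4 lower in BLM as reported, the counts were 5 and 6 with cyclic loess, 8 and 8 among genes at or above the median level (39.0% of 41 repair genes, against 53.4% of all genes there), 7 and 5 with median centring, 7 and 6 with a trended robust prior, and 7 and 4 with the mean of clusters and without genes of the X and Y chromosomes. Leaving out each array in turn gave 3 to 5 higher and 1 to 2 lower. The replicate number pairs nothing in the labels, and deviations of same-numbered arrays correlated at 0.014. As a replicate block it gave 6 higher and 4 lower, with Ddb1 at adjusted p = 0.057, and a median of -0.026. The median difference was -0.081 with cyclic loess, -0.047 with median centring, -0.0047 among genes at or above the median level and -0.045 to -0.021 without each array. Cyclic loess moved the median of all genes by -0.054 and the share of calls that were higher to 49.6%, against 60.1% as reported.

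No called repair gene changed sign under the 11 alternatives. Sign changes occurred 11 times, in genes that did not pass. Leaving out 1 array at a time gave -0.052 to 0.050 for Aptx, -0.087 to 0.026 for Atm, -0.060 to 0.0092 for Atr, -0.050 to 0.00095 for Ercc5 and -0.094 to 0.049 for Nbn. The same fits gave -0.049 to 0.040 for Palb2, -0.051 to 0.15 for Rad50, -0.045 to 0.20 for Rad52 and -0.020 to 0.010 for Xrcc1. Rad50 stood at -0.018 with cyclic loess. The cause of these changes was not tested. Of 531 alternative values of single repair genes, 487 kept direction and call, 23 lost the call and 10 gained it.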
